A study of Homo sapiens with 4 samples.

Results

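MHC class I antigen presentation was followed on the arrays through 9 genes: the heavy chains HLA-B, HLA-C, HLA-E and HLA-F, their light chain B2M, the peptide transporter genes TAP1 and TAP2, and the immunoproteasome genes PSMB8 and PSMB9. These are 9 of the 19102 genes that the array names could be matched to. They were chosen by name, as genes of 1 pathway, and they are read by 12 of 34127 probes, of which 11 were bright enough to be tested. The cells are PC3, an established human prostate carcinoma line of epithelial origin. Cells of all groups were infected for 48 h with a lentivirus carrying an shRNA and selected with puromycin. RNA was taken after 48 h or 96 h of selection, with shRNA against ALKBH3, an oxidative demethylase that removes methyl groups from single-stranded nucleic acids, or with control shRNA, which was directed against GFP. Each of the 4 combinations was hybridised to 1 single-colour array, which leaves the 2 time points as the repeats of an shRNA. The number of arrays limits the precision, nothing states that the time points were separate infections, and the p-values measure only the spread between these arrays. The labels do not name the shRNA sequence against ALKBH3, and control and knockdown cells alike carry virus, shRNA and puromycin selection.

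Class I molecules show peptides from inside the cell to cytotoxic T cells. The proteasome cuts proteins into peptides, the TAP transporter carries the peptides into the endoplasmic reticulum, and a heavy chain bound to B2M takes one up and travels to the cell surface. Almost all nucleated cells express the pathway at a base level, interferons raise it, and tumour cells often lower it.

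The promoters of the members are shown first, since class I genes are known for a shared upstream region that holds an NF-kB site and an interferon response element. Windows of 250 bases before to 50 bases from each annotated start, from RefSeq on GRCh38.p14, were given for 8 of the 9 genes in 10 windows, because TAP1 and PSMB8 have an outer and an inner start. HLA-E is the gene with no window. The stretches run 5′ to 3′ on the strand of the gene. Capitals mark letters that matched, on either strand, the NF-kB motif or the gamma-activated site (GAS, TTCNNNGAA). They also mark a short core form of the interferon-stimulated response element (ISRE, GAANNGAAA).
HLA-B: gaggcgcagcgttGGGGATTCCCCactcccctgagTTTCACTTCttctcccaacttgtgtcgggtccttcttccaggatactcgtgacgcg
HLA-C: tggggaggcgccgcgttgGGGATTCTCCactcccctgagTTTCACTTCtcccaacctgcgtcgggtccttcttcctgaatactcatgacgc
HLA-F: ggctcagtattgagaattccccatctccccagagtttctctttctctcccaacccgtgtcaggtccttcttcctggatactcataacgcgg
B2M: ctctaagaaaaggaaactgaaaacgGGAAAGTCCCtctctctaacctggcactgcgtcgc
TAP1: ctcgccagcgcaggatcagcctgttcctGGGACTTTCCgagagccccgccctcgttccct
TAP2: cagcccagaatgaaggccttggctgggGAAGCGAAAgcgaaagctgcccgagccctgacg
PSMB8: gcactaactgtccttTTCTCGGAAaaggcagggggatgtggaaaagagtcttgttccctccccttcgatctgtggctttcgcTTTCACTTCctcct

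These stretches were chosen because they hold the matches, and HLA-F is set beside HLA-B and HLA-C over the same distance from the start. HLA-B is chr6:31357279-31357369, minus strand, HLA-C is chr6:31272192-31272282, minus strand, and HLA-F is chr6:29723244-29723334, plus strand, each from position -190 to -100 with the start base as 0. B2M is chr15:44711367-44711426, plus strand, from -150 to -91. The outer start of TAP1 gave chr6:32853745-32853804, minus strand, from -100 to -41, and TAP2 gave chr6:32838770-32838829, minus strand, from -90 to -31. The inner start of PSMB8, which lies 632 bases inside the outer one, gave chr6:32844032-32844127, minus strand, from -80 to 15.

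HLA-B and HLA-C carried the NF-kB and ISRE matches side by side. The NF-kB letters of HLA-B spanned -177 to -167, as 2 overlapping matches, and its ISRE core -155 to -147, and in HLA-C the corresponding matches lay at -172 to -163 and -151 to -143. The window of HLA-F held no match to the NF-kB, ISRE or GAS letters. B2M held an NF-kB match at -125 to -116, TAP1 an NF-kB match at -72 to -63 and another at 22 to 31 of its outer window, and TAP2 an ISRE core at -63 to -55. In the inner window of PSMB8 a GAS match at -65 to -57 was joined by an ISRE core at 2 to 10, and the inner window of TAP1 held a GAS match at -189 to -181. PSMB9, whose start lies 488 bases from the outer start of TAP1 on the other strand, held none of these 3 motifs.

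Searched on both strands, the ISRE core in the form GAANNGAAA was present in 4 of the 10 member windows and in 7.66% of all 35116 RefSeq windows. Windows that hold only the longer ISRE form are not in that count. The corresponding shares were 2 of 10 and 7.66% for GAS and 4 of 10 and 5.91% for NF-kB. The CCAAT box, CCAAT, was in 6 of 10 against 34.6% of all windows, and the core of the cyclic AMP response element, TGACG, in 6 of 10 against 24.6%. The CCAAT match of PSMB9 and that of the outer TAP1 window are the same bases, since these windows overlap. A match describes letters only and is not a binding site.

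**Figure D1:**
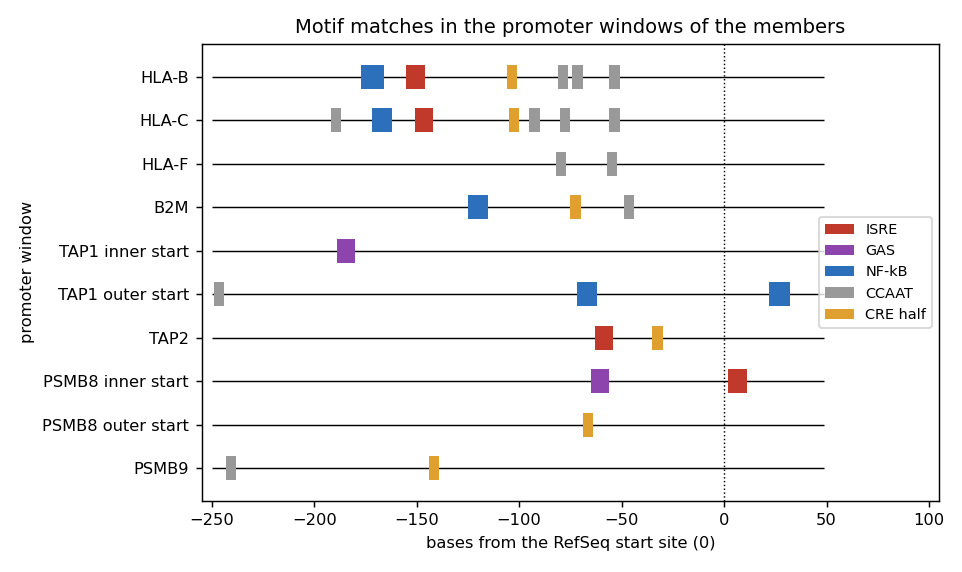
Positions of motif matches in the 10 promoter windows of the members. The horizontal axis gives bases from the RefSeq start site (0), each line is 1 window and each coloured block is 1 match on either strand; the yellow blocks are the TGACG core of the cyclic AMP response element (CRE). HLA-B and HLA-C show an NF-kB block next to an ISRE block upstream of -140, and HLA-F shows only CCAAT blocks.

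The target of the shRNA was lower on both ALKBH3 shRNA arrays. Signals are given throughout as log2 intensity relative to the 75th percentile of the same array. At 48 h the probe A_23_P35989 of ALKBH3 read -0.62 in control cells and -2.66 in knockdown cells, and at 96 h it read -0.61 and -2.67, a log2 fold change of -2.05 over the 4 arrays (limma adjusted p = 0.217, and 0.0247 in the fit blocked by time point). Between 67.0% and 70.9% of the probes of an array were well above background and 0 spots were saturated. Each slide held the 2 arrays of 1 time point, so time point and slide cannot be told apart, while the shRNAs were compared within a slide. The 7 epithelial marker probes were well above background on every array. The 5 keratin probes had log2 fold changes between -0.27 and 0.14 at 48 h, while EPCAM, an adhesion protein, had 0.96 and 0.99 at 48 h and 96 h (limma adjusted p = 0.451, and 0.0377 in the blocked fit) and CDH1, E-cadherin, 0.89 and 0.58 (0.894 and 0.0583). The prostate luminal marker KLK3 was not well above background on any. Of the 12 leukocyte marker probes, between 6 and 7 were well above background on an array, and their summed intensity was 595 and 662 on the control arrays and 663 and 688 on the ALKBH3 shRNA arrays at 48 h and 96 h. The fold changes at 48 h of the 6 leukocyte probes tested lay between -0.09 and 0.16 on the log2 scale, and MS4A1 and NCAM1 were not tested. The 6 fibroblast marker probes summed to 1663 and 1148 on the control arrays and to 2613 and 2020 on the ALKBH3 shRNA arrays, with COL1A2 not well above background and LUM, a matrix proteoglycan, 3.95-fold higher with ALKBH3 shRNA at 48 h and at least 3.96-fold at 96 h, where it was not well above background in control cells. The 5 endothelial marker probes summed to 539 and 532 with control shRNA and to 439 and 439 with ALKBH3 shRNA. The part of these markers in the values below was not tested. In RNA of a whole culture, fewer cells with a transcript and less of it per cell cannot be told apart.

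The members were higher with ALKBH3 shRNA at 48 h and close to control at 96 h. At 48 h all 11 probes tested were higher with ALKBH3 shRNA, with a median log2 fold change of 0.86, against -0.01 over all 23244 probes tested. At 96 h 7 were higher and 4 lower, with a median of 0.03 against 0.02 over all probes. In 10 of the 11 probes the 48 h array of ALKBH3 shRNA was at least 1.5-fold above its control, as were 4.73% of all probes, and in 3 it was at least 2-fold above, as were 1.63% of all. At 96 h 0 of 11 reached 1.5-fold higher, against 4.41% of all probes, or 2-fold, against 1.35%. Since each side of these comparisons is 1 array, no test was possible. For scale, the median size of the log2 difference between the shRNAs over all probes was 0.15 at each time point.

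Over the 4 arrays no member passed the test between the shRNAs. The cutoffs, a 2-fold change with an unadjusted p below 0.05, called 0 of the 11 probes higher and 0 lower in limma, against 0.895% and 0.232% of all probes. An unadjusted p below 0.05 was reached by 0 of 11 members and 7.64% of all probes, and an adjusted p below 0.05 by 0 members and 0% of all. The methods' t-test on the same values also left 0 members below an unadjusted p of 0.05. In the fit that took the time points as replicate blocks, 0 members and 2.13% of all probes passed the adjusted p. The adjusted p of the 11 probes in that limma fit lay between 0.119 and 0.859. The median log2 fold change of the 11 probes was 0.47, against 0.0033 over all probes. Leaving out the ALKBH3 shRNA array at 48 h gave a median of -0.06, and leaving out that at 96 h gave 0.93.

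**Figure D2:**
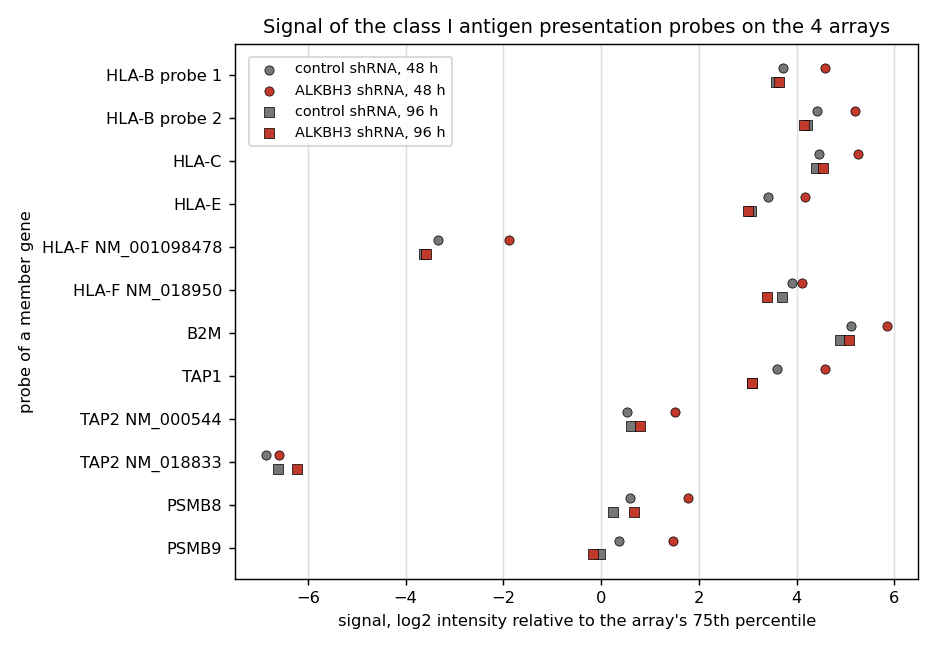
Signal of each member probe on the 4 arrays. The horizontal axis is log2 intensity relative to the array's 75th percentile, with a circle for 48 h, a square for 96 h, grey for control shRNA and red for ALKBH3 shRNA; 1 point is 1 array. The red circle lies to the right of the other points in every probe except the TAP2 probe for NM_018833, which is near background.

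Among the heavy chains, the polymorphic proteins that hold the peptide, HLA-B is read by 2 probes, both for NM_005514. The first, A_33_P3379947, had signals of 3.73 with control and 4.59 with ALKBH3 shRNA at 48 h and of 3.58 and 3.64 at 96 h. The other, A_33_P3424800, had 4.42 and 5.19 at 48 h and 4.22 and 4.14 at 96 h. In both probes 3 arrays lay close together and the 48 h array of ALKBH3 shRNA stood above them. The groups overlapped, since an ALKBH3 shRNA array at 96 h fell below the control array at 48 h. The fold at 48 h was 1.82 and 1.71 by the first and the other probe, and over all arrays the log2 fold change was 0.46 (standard error 0.34, limma adjusted p = 0.856) and 0.35 (0.37, 0.923). The 95% interval of the first ran from -0.43 to 1.34.

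HLA-C, which besides T cells is read by inhibitory receptors of natural killer cells, had signals of 4.47 and 5.25 at 48 h and of 4.39 and 4.54 at 96 h with control and ALKBH3 shRNA. Both ALKBH3 shRNA arrays were above both control arrays, by 1.72-fold at 48 h and 1.11-fold at 96 h. Its log2 fold change over all arrays was 0.47 with a 95% interval from -0.22 to 1.15 (limma adjusted p = 0.779).

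HLA-E presents leader peptides of other class I chains to natural killer cells. Its signals were 3.42 and 4.17 at 48 h and 3.06 and 3.0 at 96 h with control and ALKBH3 shRNA. It was 1.68-fold higher at 48 h, and at 96 h the order of the shRNAs turned, with a log2 fold change of -0.06. Over all arrays the value was 0.35 with a 95% interval from -0.75 to 1.44 (limma adjusted p = 0.938).

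HLA-F, a heavy chain of low polymorphism, is read by 2 probes for different transcripts, and these disagreed. The probe for NM_001098478 had signals of -3.34 and -1.88 at 48 h and of -3.62 and -3.58 at 96 h, 2.75-fold higher with ALKBH3 shRNA at 48 h and 1.02-fold at 96 h. The probe for NM_018950 had 3.91 and 4.10 at 48 h and 3.70 and 3.40 at 96 h, a log2 fold change of 0.19 and then of -0.30. All 8 of these values were well above background. The former had the largest 48 h change of the members and the latter the smallest. The first rank depended on background correction: with normexp the former had 1.15 on the log2 scale at 48 h, below PSMB8 at 1.26. Their limma estimates over all arrays were 0.75 (standard error 0.58, adjusted p = 0.869) and -0.05 (standard error 0.27, adjusted p = 0.991).

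HLA genes are near-identical over long stretches, so a probe for one can bind the transcripts of another and the values of single HLA genes are uncertain. The probe of the pseudogene HLA-J had log2 fold changes of 0.79 and -0.11 at 48 h and 96 h, and that of HLA-G, best known from placenta, had 0.28 and 0.08. The 5 members outside the HLA genes had medians of 0.99 at 48 h and of 0.19 at 96 h, so the height at 48 h was as large without the HLA probes.

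B2M, the invariant light chain, is read by a probe printed in 10 spots an array. Its signals were 5.12 and 5.86 at 48 h and 4.88 and 5.07 at 96 h with control and ALKBH3 shRNA, and the SD of its spots lay between 0.06 and 0.11 on an array. The 48 h array of ALKBH3 shRNA stood above the other 3. The 96 h array of ALKBH3 shRNA was above its own control but below the control at 48 h. B2M was 1.67-fold higher at 48 h and 1.14-fold at 96 h. Over all arrays its log2 fold change was 0.47 with a 95% interval from -0.30 to 1.23 (limma adjusted p = 0.809, and 0.184 in the blocked fit).

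TAP1 and TAP2 encode the subunits of the peptide transporter. TAP1 had signals of 3.61 and 4.57 at 48 h and of 3.09 on both arrays at 96 h. It was 1.95-fold higher at 48 h, and at 96 h its log2 fold change was 0.0032. The limma estimate over all arrays was 0.48 with a 95% interval from -0.90 to 1.87 (adjusted p = 0.928).

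TAP2 is read by 2 probes for different transcripts. The probe for NM_000544 had signals of 0.52 and 1.51 at 48 h and of 0.61 and 0.80 at 96 h, 1.99-fold and 1.14-fold higher with ALKBH3 shRNA. Both ALKBH3 shRNA arrays were above both control arrays, and this was the 1 member whose signal was higher at 96 h than at 48 h in control cells. Over all arrays the log2 fold change was 0.59 with a 95% interval from -0.10 to 1.28 (limma adjusted p = 0.709). The probe for NM_018833 had signals of -6.86, -6.58, -6.62 and -6.22 in the same order of arrays, was well above background on 1 of the 4 arrays and was not tested.

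PSMB8 and PSMB9 are interferon-inducible catalytic subunits that replace their constitutive counterparts in the immunoproteasome. PSMB8 had signals of 0.58 and 1.78 at 48 h and of 0.23 and 0.66 at 96 h. Both ALKBH3 shRNA arrays were above both control arrays, by 2.29-fold at 48 h and 1.35-fold at 96 h. PSMB8 had the largest log2 fold change of the members over all arrays, 0.81 with a 95% interval from -0.23 to 1.86 (limma adjusted p = 0.743, and 0.119 in the blocked fit).

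PSMB9 had signals of 0.36 and 1.46 at 48 h and of -0.02 and -0.17 at 96 h. It was 2.14-fold higher with ALKBH3 shRNA at 48 h, and at 96 h its log2 fold change was -0.16, so the array of ALKBH3 shRNA at 96 h was the lowest of the 4. Over all arrays its value was 0.47 with a 95% interval from -1.0 to 1.95 (limma adjusted p = 0.938). PSMB9 and TAP1, which start 488 bases apart on opposite strands, had log2 fold changes of 1.10 and 0.97 at 48 h and of -0.16 and 0.0032 at 96 h.

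**Figure D3:**
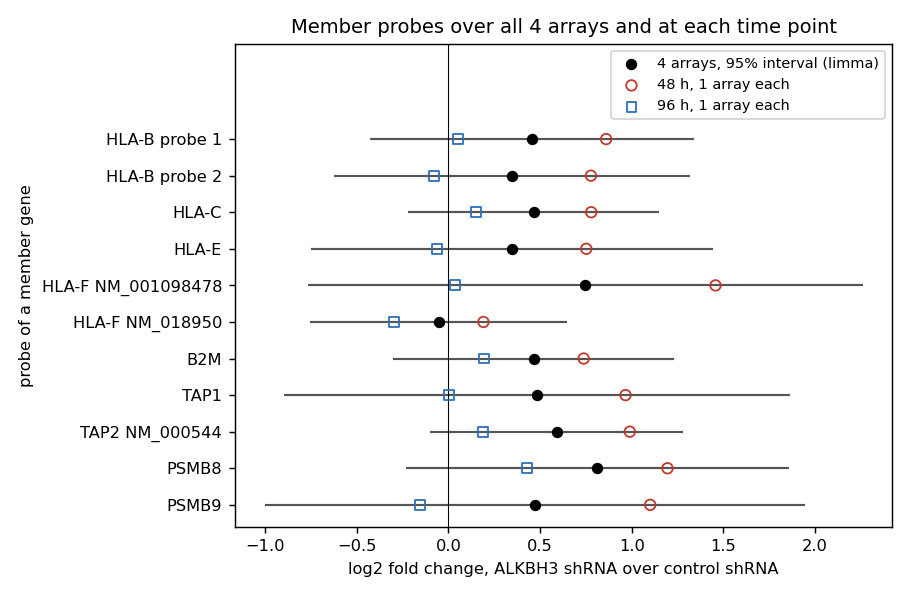
Log2 fold change of each tested member probe, ALKBH3 shRNA over control shRNA. Black points and lines are the limma estimate over 4 arrays with its 95% interval, open circles the 48 h and open squares the 96 h difference of 1 array from 1 array. The circle lies to the right of the square in all 11 probes, and every interval includes 0.

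The difference between time points was shared by the members. All 11 probes had a larger log2 fold change at the earlier time, and the difference had a median of 0.81 and a range from 0.49 to 1.42. It was at least 1.5-fold larger in 9 of the 11, as in 2.73% of all probes. The fall lay mainly in the ALKBH3 shRNA arm. There all 11 probes were lower at 96 h than at 48 h, with a median log2 difference of -1.05 and a range from -1.70 to -0.70. In the control arm 10 of 11 were lower, with a median of -0.24 and a range from -0.52 to 0.08. With 1 array for each combination, on different slides at different times, this difference was not tested.

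**Figure D4:**
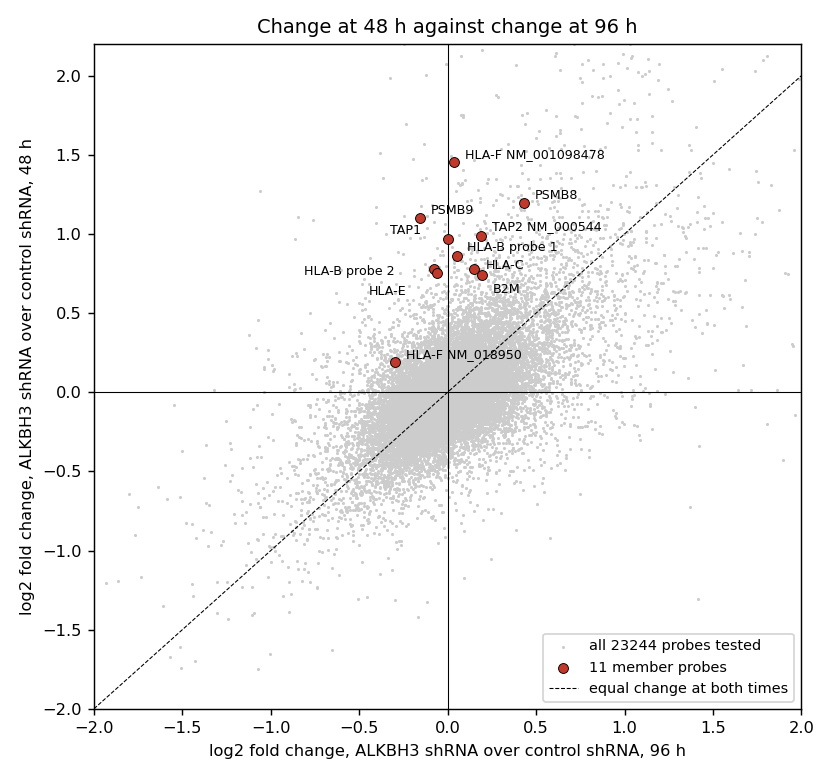
Log2 fold change, ALKBH3 shRNA over control shRNA, at 48 h (vertical axis) against 96 h (horizontal axis). Grey points are all 23244 probes tested, of which 73 lie outside the axes, and red points the 11 member probes; on the dashed line the change is equal at both times. The members lie above the line, 10 of them in the band from 0.74 to 1.46 at 48 h, and the HLA-F probe for NM_018950 lies lower at 0.19.

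The genes whose 4 signals followed the mean course of the members most closely were sought among 17983 probes well above background on all arrays. Each probe was centred on its own mean, and likeness was the root mean square distance over the 4 arrays on the log2 scale. The 5 nearest genes were ZNFX1 at 0.034, UNC93B1 at 0.035, RBM43 at 0.049, ATP10A at 0.065 and SOSTDC1 at 0.073, while the members themselves lay between 0.061 and 0.294 from their mean. ZNFX1 had log2 fold changes of 0.91 and 0.12 at 48 h and 96 h, and UNC93B1, which escorts Toll-like receptors, at 0.88 and 0.13. A course over 4 arrays is a description.

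The other genes of the pathway are given by list. In the peptide loading complex and the trimming enzymes, 12 probes of 8 genes were tested, 0 passed the cutoffs in either direction and 0 of those tested were 1.5-fold higher at either time point. The median over these probes was 0.12 at 48 h and -0.05 at 96 h on the log2 scale. Tapasin, TAPBP, which bridges the transporter and the heavy chain, lay between 0.10 and 0.22 in its 3 probes at 48 h, and calreticulin, CALR, at -0.19. The trimming enzymes ERAP1 and ERAP2 had 0.35 and 0.41 at 48 h and -0.11 and -0.06 at 96 h in their tested probes. Another ERAP1 probe, well above background on both arrays at 48 h and on none at 96 h, was not tested, and its log2 fold change at 48 h was 1.14.

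The remaining proteasome genes had smaller fold changes at 48 h than PSMB8 and PSMB9. Their partners in the immunoproteasome, with the activator subunits, had median log2 fold changes of 0.21 and -0.01 at 48 h and 96 h over 5 genes, with PSMB10, the remaining inducible subunit, at 0.21 and the activator PSME2 at 0.27 at 48 h. The constitutive counterparts PSMB5, PSMB6 and PSMB7 lay at -0.09, -0.08 and -0.02 at 48 h and at 0.17, 0.01 and 0.05 at 96 h. None of these 8 genes passed the cutoffs or the adjusted p.

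Of the 11 other class I and class I-like heavy chains, 7 genes were tested with 12 probes and 0 passed the cutoffs. The median of their log2 fold changes was 0.08 and then -0.02. MR1, which presents vitamin B metabolites, had log2 fold changes of 0.71 and 0.61 at 48 h and of 0.42 and 0.62 at 96 h in its 2 probes. Those of MICA, a stress ligand, were at -0.44 and -0.32 at 48 h.

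Among the transcription factors known to drive class I genes, 12 of 13 genes were tested with 14 probes, and 0 passed the cutoffs. The median of their log2 fold changes was 0.32 at the earlier and 0.05 at the later time. STAT2, which acts downstream of interferon receptors, had 0.71 and 0.11, IRF1 0.68 and -0.48, and IRF9 0.36 and 0.37 at 48 h and 96 h. NLRC5, the class I transactivator, had 0.37 and 0.10 in the probe tested. Its other probe, well above background on both arrays at 48 h and on none at 96 h, was not tested, and its log2 fold change at 48 h was 1.86, or 3.64-fold. CIITA, the class II transactivator, was not tested.

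Of 9 interferon ligand genes 4 were tested, with 0 probes past the cutoffs. The type III interferons IFNL1 and IFNL2 had log2 fold changes of 1.09 and 1.31 at 48 h. At 96 h IFNL2 had 0.08, and IFNL1, not well above background in control cells there, was at least 1.52-fold higher. IFNB1, which was not well above background on the control array at 48 h, was at least 2.64-fold higher there with ALKBH3 shRNA and was not tested over all arrays. Of its 4 arrays, the 48 h array of ALKBH3 shRNA is the 1 on which it was well above background. The interferon receptors and their kinases, 13 probes of 9 genes, had medians of 0.04 at 48 h and 0.06 at 96 h on that scale. A probe of the type III receptor gene IFNLR1 had 0.61 and 0.69 (limma adjusted p = 0.399, and 0.049 in the blocked fit). Its other tested probes did not pass in the blocked limma fit. They had 0.59 and 0.83 (blocked adjusted p = 0.055), and 0.29 and 0.31 (blocked adjusted p = 0.145).

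The MHC class II list had 8 of 15 genes tested, with 10 probes, medians of 0.13 and 0.16 at the time points on the log2 scale, and 0 past the cutoffs. CD74, the class II invariant chain, was too dim to be tested. Of the ligands for natural killer and T cells 6 probes of 5 genes were tested, and the 2 probes past the cutoffs were both of CD274, which encodes PD-L1. These probes entered the test through the ALKBH3 shRNA arrays alone, being well above background on 1 and 0 of the 2 control arrays, so the calls are given as a description. The first CD274 probe had signals of -6.33 and -3.73 at 48 h and of -6.64 and -5.03 at 96 h with control and ALKBH3 shRNA, the last of these pairs with the control not well above background. Its change on the log2 scale was 2.60 at 48 h, and at 96 h it was at least 2.79-fold higher. The other CD274 probe, whose signal was not well above background with control shRNA, was at least 2.02-fold higher over the 4 arrays. RAET1E, a ligand of the receptor NKG2D, had a value of 0.71 at 48 h on the log2 scale, and at 96 h, where it was not well above background in control cells, it was at least 1.55-fold higher.

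**Figure D5:**
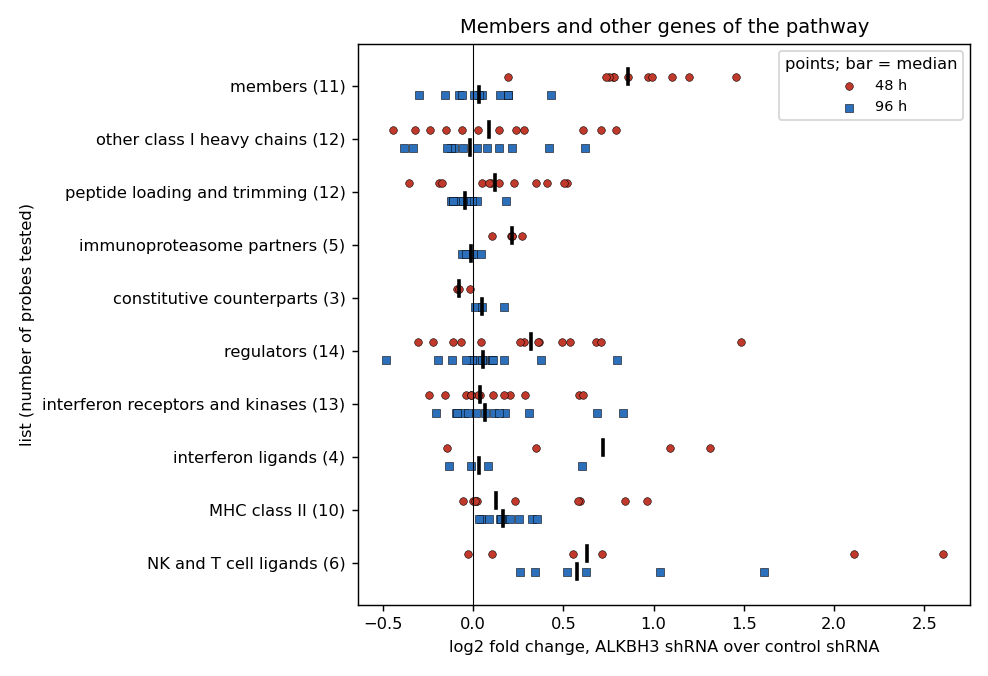
Log2 fold change, ALKBH3 shRNA over control shRNA, of the member probes and of 9 lists of related genes. Each circle is a probe at 48 h and each square the same probe at 96 h, 1 array against 1 array; the vertical bars are medians and the number of probes tested stands behind each name. The members' median is 0.86 at 48 h and 0.03 at 96 h, while the peptide loading genes lie near 0 at both.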

How the data were processed

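The 4 arrays are single-colour Agilent arrays, and each holds RNA of PC3 cells of 1 shRNA at 1 time. The authors deposited the spot intensities that Agilent Feature Extraction (version 10.7.3.1, per the file headers) had background-corrected on each array by itself. They also deposited log2 values normalized between the arrays, which was used here as an alternative. Spots marked as not uniform or as outliers, 180 to 379 on an array, were removed, log2 intensities were centred on each array's 75th percentile, and replicate spots were averaged. No gene names stand in the deposited spot files, so probes were named by matching RefSeq accessions without their versions to RefSeq genes of GRCh38.p14. Of 34127 probes 24910 got a name and 9217 did not. All 9 members were matched. The array files state no genome build, and coordinates are those of the RefSeq promoter windows alone.

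A probe counted as well above background where a share of 0.5 or more of its spots was marked so by the software. The 23244 probes that reached this with either shRNA, at 48 h and at 96 h, were tested. Of the rest, 10867 were dim and 16 had lost a spot. R 4.3.3 and limma 3.58.1 (lmFit and eBayes) were used without a covariate, and p-values were adjusted after Benjamini and Hochberg, across the 23244 probes. The time points pair the arrays by label and slide, and the differences between 96 h and 48 h correlated between the shRNAs at 0.660 over the probes tested. The fit was also made with time point as a replicate block. A fold against a signal not well above background was computed against the weakest signal that was, or the probe's own where higher. The steps were tested on simulated data.

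The members and all lists were chosen with earlier results of these data known. All members are named, and of other genes those past the cutoffs, past the adjusted p with the block or 2-fold at a time point, and those needed to say what a list holds.

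Alternative settings were background correction by normexp (offset 50), with and without quantile normalization, quantile normalization alone, centring on the median or on the percentile of probes above background on all arrays, the authors' values, no filter or a filter on all 4 arrays, 1 probe a gene, a 1.5-fold cutoff, the methods' t-test, the replicate block and leaving out each array. Normexp started from the median pixel intensity of each spot. Of the genes in the lists, HLA-H, IFNA1, RAET1G and RAET1L were not matched by name. Some genes of the lists are counted but not reported here by name. ChIP-seq data are not analysed here.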

Additional observations from a re-analysis of the deposited data

Results flagged for a closer look

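In 4 member probes the arrays of the 2 time points pointed opposite ways. The log2 fold change with ALKBH3 shRNA was above 0 at 48 h and below 0 at 96 h: 1.10 and -0.16 for PSMB9, 0.78 and -0.08 for the HLA-B probe A_33_P3424800, 0.75 and -0.06 for HLA-E, and 0.19 and -0.30 for the HLA-F probe A_33_P3379939. Each value compares 1 array with 1 array, and the difference between time points was not tested. The values at 96 h of HLA-B and HLA-E are smaller in size than the median difference of 0.15 over all probes.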

How the results depend on the processing

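The 48 h array of ALKBH3 shRNA decided the values over all arrays. Without it the median log2 fold change of the members was -0.063, and single values turned to -0.35 for PSMB9, -0.26 for TAP1, -0.24 for HLA-E, -0.021 and -0.18 for HLA-B (A_33_P3379947 and A_33_P3424800) and -0.11 for HLA-F (A_33_P3379967). Leaving out each array in turn, the median ran from -0.063 to 0.93 and the count past the cutoffs from 0 to 4, the latter without the 96 h array of ALKBH3 shRNA, where 10 of 11 members had an unadjusted p below 0.05 and 0 passed the adjusted p. The ranges of the values above reached 1.29 for PSMB9, 1.22 for TAP1, 0.93 for HLA-E, 0.93 and 0.88 for HLA-B and 1.597 for HLA-F. These fits take the lone array to vary like the pair. The HLA-F probe A_33_P3379939 ran from -0.41 to 0.30 and was at 0.05 without the control array at 48 h and at 0.30 without the ALKBH3 shRNA array at 96 h.

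The count of members 2-fold higher at 48 h was 5 in place of 3 with quantile normalization, with normexp and quantile normalization and with the authors' values. Across the scalings, filters and probe choices, the 48 h median stayed between 0.78 and 0.93 and the 96 h median between -0.03 and 0.05. The count 1.5-fold higher at 48 h stayed at 10, or 8 of 9 with 1 probe a gene. Counts at 1.5-fold and 2-fold at single time points, and the median without HLA genes, were added after seeing the data. In the fit with a replicate block for the time points, the count past the cutoffs stayed 0 and the count past the adjusted p 0. PSMB8 and HLA-C had an unadjusted limma p below 0.05 with normexp or the authors' values. Over all probes 1367 of 23244 were below it with normexp alone and 1466 of 23260 with the authors' values. The count over all probes past the adjusted p was 496 with the block and 0 without it.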
